A study of Mus musculus with 6 samples.

Results

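The 10 genes described here set the pace of the G1 phase of the cell cycle: the D-type cyclins Ccnd1, Ccnd2 and Ccnd3, the E-type cyclins Ccne1 and Ccne2, the kinases Cdk4, Cdk6 and Cdk2, and the CDK inhibitors Cdkn1b and Cdkn2c. They were chosen by gene symbol from a table of 23284 genes, and all 10 were found. RNA-seq was performed on ventricles of mouse embryos at E9.5. The WT group had 3 embryos derived from wild type C57BL/6J ES cells, and the KD group had 3 embryos derived from ES cells of the same strain in which both alleles of Tbx5ua, a lncRNA transcribed divergently from Tbx5, carried 3 tandem bGH polyadenylation signals in the second exon (Tbx5ua -/-). All embryos of both groups were tetraploid chimeras, in which the embryo proper comes from the injected ES cells, and the edited ES cells were clonal. KD embryos were obtained from more than 1 edited line, and which line each sequenced embryo came from is not given in the sources used here. The targeted transcript itself was not analysed here. The comparison asks whether genes that control entry into the cell cycle differ in level between KD and WT ventricles.

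Cells commit to a new cycle in late G1. Growth signals raise the D-type cyclins, which bind CDK4 and CDK6 and phosphorylate the retinoblastoma family of pocket proteins. This releases E2F transcription factors, which switch on the E-type cyclins and the genes of DNA replication, and cyclin E with CDK2 completes the step. INK4 inhibitors such as p18 (Cdkn2c) block CDK4 and CDK6 only, whereas Cip/Kip inhibitors such as p27 (Cdkn1b) bind cyclin-CDK complexes more widely. The embryonic ventricle grows by division of its cardiomyocytes, and mice that lack all D-type cyclins or both Cdk2 and Cdk4 die as embryos with thin ventricular walls.

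The members differ in how they recognise their partners, which can be read from the coding sequence. The sequences below were read from GENCODE M21 on build GRCm38 (mm10), 5′ to 3′ on the coding strand. The D-type cyclins carry near their start the codons of the motif L-x-C-x-E, by which they bind the retinoblastoma protein. The motif codons are in capitals. Each run begins at the start codon and lies in coding exon sequence, at chr7:144939643-144939693 (minus strand) for Ccnd1, chr6:127150729-127150773 (minus strand) for Ccnd2 and chr17:47593655-47593699 (plus strand) for Ccnd3.
Ccnd1: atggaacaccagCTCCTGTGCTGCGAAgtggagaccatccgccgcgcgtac
Ccnd2: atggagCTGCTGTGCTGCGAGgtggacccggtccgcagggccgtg
Ccnd3: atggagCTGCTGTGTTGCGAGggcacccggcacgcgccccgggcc
Of the 15 motif bases, 14 were identical between Ccnd2 and Ccnd3, 13 between Ccnd1 and Ccnd2, and 12 between Ccnd1 and Ccnd3. Over the aligned coding bases, with gaps left out, the identity was 70.5% between Ccnd1 and Ccnd2. It was 69.5% between Ccnd2 and Ccnd3 and 67.3% between Ccnd1 and Ccnd3. No 50-base window of a D-type cyclin transcript occurred in a transcript of another.

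The kinases differ in the helix that docks on the cyclin, known as PSTAIRE in CDK2. Its codons are in capitals, with the neighbouring codons in lower case. All 3 stretches lie in exon 2 of the coding transcript read, at chr10:128703958-128703996 (minus strand) for Cdk2, chr10:127064374-127064412 (plus strand) for Cdk4 and chr5:3344520-3344558 (plus strand) for Cdk6.
Cdk2: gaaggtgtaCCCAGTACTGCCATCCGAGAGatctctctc
Cdk4: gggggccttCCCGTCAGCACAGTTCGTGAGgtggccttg
Cdk6: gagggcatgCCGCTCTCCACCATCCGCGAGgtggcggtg
Of the 21 helix bases, 13 were identical between Cdk4 and Cdk6, 13 between Cdk2 and Cdk6, and 11 between Cdk2 and Cdk4. Over the aligned coding bases, with gaps left out, Cdk4 and Cdk6 were 70.3% identical, Cdk2 and Cdk4 67.1%, and Cdk2 and Cdk6 63.5%.

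The Cip/Kip inhibitors hold the cyclin with a short conserved motif (R-x-L-F-G), shown in capitals for Cdkn1b and for its relatives Cdkn1a (p21) and Cdkn1c (p57), because the levels of the 3 genes lie far apart in the ventricle. The stretches are at chr6:134920998-134921030 (plus strand, exon 1) for Cdkn1b, chr17:29098450-29098482 (plus strand, exon 2) for Cdkn1a and chr7:143460588-143460620 (minus strand, exon 2) for Cdkn1c.
Cdkn1b: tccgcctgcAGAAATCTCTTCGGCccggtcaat
Cdkn1a: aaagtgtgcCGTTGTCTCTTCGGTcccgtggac
Cdkn1c: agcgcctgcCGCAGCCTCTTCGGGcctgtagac
Of the 15 motif bases, 10 were shared by Cdkn1b and Cdkn1a, 10 by Cdkn1b and Cdkn1c, and 11 by Cdkn1a and Cdkn1c.

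The table holds 1 FPKM value per gene and group, a fragment count divided by transcript length and by sequencing depth. No values of single embryos, read counts or library totals were at hand, so the depth is unknown and no SD, interval or test could be computed here. A difference between the groups is therefore set against the differences of all other genes, and is not shown to exceed the spread between embryos. FPKM is scaled to transcript length, so levels can be set side by side between genes. In whole ventricles, fewer cells of a type and less RNA per cell cannot be told apart. The heart muscle markers Tnnt2 (1842 FPKM in WT and 1807 in KD) and Myl2 (10924 and 12702 FPKM) were abundant in both groups of this heart tissue.

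The members spanned a 1355-fold range of FPKM in WT and a 978-fold range in KD. In WT the order from the highest level was Cdk4, Ccnd3, Ccnd2, Ccne1, Cdk2, Ccnd1, Ccne2, Cdkn1b, Cdk6 and Cdkn2c. Cdk4 ranked 219 and Ccnd3 391 among all genes of the table, whereas Cdk6 ranked 8222 and Cdkn2c 12083. In KD the order of Ccne1, Cdk2 and Ccnd1 was turned around, and the other members kept their places. These 3 genes followed each other by steps of at most 1.13-fold in WT and 1.16-fold in KD, and without a spread between embryos their order cannot be decided.

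**Figure D1:**
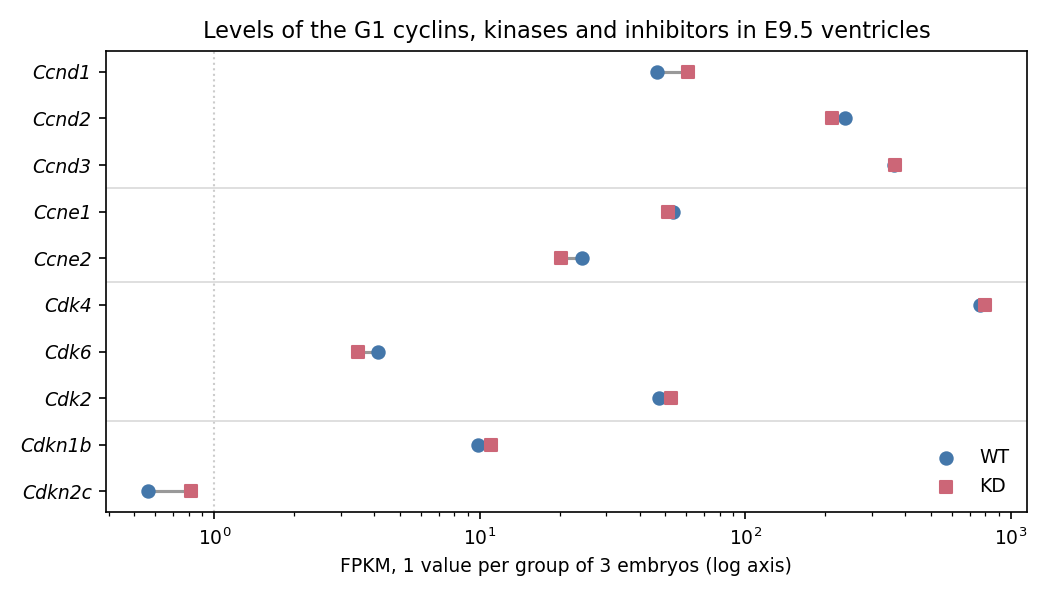
Level of each of the 10 genes as FPKM on a log axis, with 1 value per group of 3 embryos (circle, WT; square, KD) and a dotted line at 1 FPKM. The 2 symbols of a gene lie close together compared with the distances between genes, and Ccnd1 and Cdkn2c show the widest gaps to the right.

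The D-type cyclins are the sensors of growth signals, and their transcripts in the ventricle came mainly from 2 of the genes. Ccnd3 (chr17:47505051-47611492) was the highest, with 363 FPKM in WT and 367 in KD, a ratio of 1.01 (log2 0.02). The log2 ratio was -0.02 when both groups were scaled to the same total, so no direction can be given for Ccnd3. Ccnd2 (chr6:127125709-127212419) had 237 FPKM in WT and 212 in KD, a KD to WT ratio of 0.895 (log2 -0.16). Ccnd1 (chr7:144929931-144939925), the form best known as a target of mitogen signalling, was the lowest of the family, with 46.7 FPKM in WT and 60.6 in KD, a ratio of 1.30 (log2 0.38).

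The difference of Ccnd1 was the widest among the 9 members that reached 1 FPKM, and the Ccnd3 difference the narrowest. The background was taken as the 11606 genes that reached 1 FPKM in WT or KD, and 17.7% of them lay at least as far from equal levels as Ccnd1, in either direction. Wide ratios were more frequent among weakly expressed genes, and among the 4556 genes with a mean level of 10 to 100 FPKM, where Ccnd1 belongs, 7.3% lay at least as far. For Ccnd2 the share was 24.0% of the 1176 genes over 100 FPKM, and for Ccnd3 it was 90.9%.

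Ccnd1 and Ccnd2 differed in opposite directions, and the summed level of the D-type cyclins was nearly equal in the 2 groups, with 646 FPKM in WT and 639 in KD (ratio 0.99). The share of Ccnd3 was 56.2% in WT and 57.4% in KD. Ccnd2 made up 36.6% and 33.1%, and Ccnd1 7.22% and 9.48%. Ccnd2 was thus 5.07 times the level of Ccnd1 in WT and 3.49 times in KD.

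The E-type cyclins act after the D-type and are themselves E2F targets, and both were slightly lower in KD. Ccne1 (chr7:38097984-38107490) had 53.4 FPKM in WT and 51.0 in KD (ratio 0.954, log2 -0.07). Ccne2 (chr4:11191354-11254259) had 24.3 FPKM in WT and 20.3 in KD (ratio 0.833, log2 -0.26), and 16.9% of genes of its level class differed at least as much. Their sum was 77.8 FPKM in WT and 71.3 in KD (ratio 0.92). The share of Ccne1 was 68.7% in WT and 71.5% in KD. The D-type sum exceeded the E-type sum 8.31 times in WT and 8.97 times in KD.

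**Figure D2:**
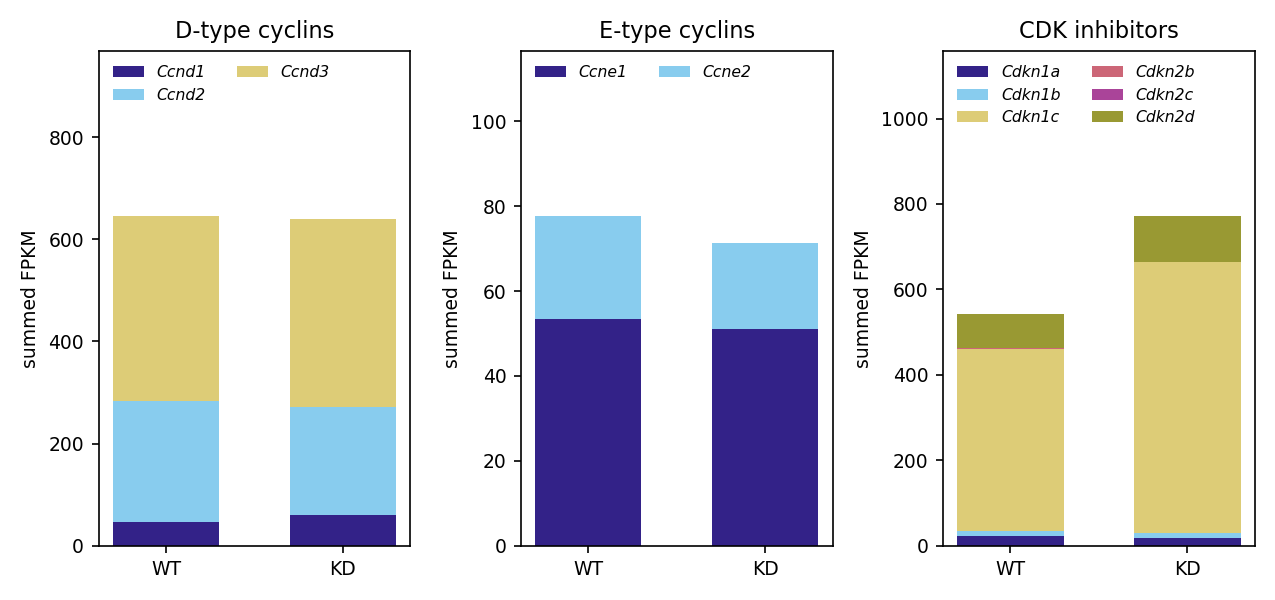
Stacked FPKM values of the D-type cyclins, the E-type cyclins and the CDK inhibitors in WT and KD, with 1 bar per group and a linear axis from 0 that differs between panels. The D-type bars are 646 and 639 FPKM high, while the inhibitor bars are 542 and 772 FPKM high and are mostly Cdkn1c.

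Among the kinases, transcripts of the D-type cyclin partners came almost wholly from Cdk4. Cdk4 (chr10:127063603-127067282) was the most abundant member, with 763 FPKM in WT and 798 in KD (ratio 1.045, log2 0.06). Cdk6 (chr5:3344312-3522225), a kinase best known from blood cells, had 4.13 FPKM in WT and 3.48 in KD (ratio 0.844, log2 -0.24), and 44.5% of the 5634 genes with a mean of 1 to 10 FPKM differed at least as much. Cdk4 held 99.5% of the transcript level of the pair in WT and 99.6% in KD. Cdk2 (chr10:128697939-128705051), the partner of the E-type cyclins, had 47.4 FPKM in WT and 52.4 in KD (ratio 1.104, log2 0.14), and 43.2% of its level class differed at least as much. The level of Cdk4 and Cdk6 together was 1.19 times that of the D-type cyclins in WT and 1.253 times in KD. The E-type cyclins together were 1.64 times the level of Cdk2 in WT and 1.36 times in KD.

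Cdk4, the highest member, also stood apart in its upstream sequence. The letters CACGTG, the E-box bound by MYC-MAX dimers among others and identical on both strands, occurred 4 times in the 250 bases before the start of the RefSeq transcript of Cdk4 (build GRCm38.p6, plus strand, chr10:127063285-127063534). They are in capitals.
Cdk4 upstream: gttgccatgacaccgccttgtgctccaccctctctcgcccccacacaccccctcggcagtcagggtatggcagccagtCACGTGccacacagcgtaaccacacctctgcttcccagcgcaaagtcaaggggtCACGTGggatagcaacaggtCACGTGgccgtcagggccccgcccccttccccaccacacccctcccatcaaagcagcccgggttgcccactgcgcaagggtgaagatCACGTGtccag
Of 32851 RefSeq mouse promoters of 300 bases (250 before to 50 after the start), 7.15% held this E-box at least once and 8 held it at least 4 times, Cdk4 among them. Promoters were matched for 7 of the 10 members (Ccnd3, Ccne1, Cdk2, Cdk4, Cdk6, Cdkn1b and Cdkn2c), with 9 promoters in all. Cdk6 and Cdkn2c each held 1 E-box. The E2F letters searched on both strands (TTTCCCGC, TTTCGCGC, TTTGCCGC and TTTGGCGC) occurred once, in the Cdk2 promoter, and in 2.26% of all promoters. The T-box letters AGGTGTGA (in 1.28% of all promoters) and the letters TTTGAA of the CHR element (in 17.9%) were in none of the 9. These are matches of letters and not shown to be bound sites. Among the listed genes of MYC factors, MAX and its MXD partners, Mycn had 72.6 FPKM in WT and 53.9 in KD (log2 -0.43). Myc had 15.1 and 21.2 (log2 0.49) and Max 26.8 and 29.8 (log2 0.15). Mxd3 had 16.3 and 18.9 (log2 0.21) and Mxd4 2.28 and 5.0 (log2 1.13). The log2 ratio of Cdk4 was 0.06, and the part of these genes in its level was not tested.

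The inhibitors chosen as members were among the 3 lowest of the 10 genes. Cdkn1b (chr6:134920401-134925525), which encodes p27 and restrains cyclin E-CDK2, had 9.86 FPKM in WT and 11.0 in KD (ratio 1.115, log2 0.16), and 38.7% of its level class differed at least as much. Cdkn2c (chr4:109660876-109665372), which encodes p18, had 0.563 FPKM in WT and 0.815 in KD. Its ratio of 1.45 (log2 0.53) was the widest of the members, but it was the only member under 1 FPKM in both groups, and with a pseudocount of 1 FPKM the log2 difference was 0.22.

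The wider family of CDK inhibitors put these levels in context. Cdkn1c, which encodes p57 and is an imprinted inhibitor of growth, was the main inhibitor transcript, with 428 FPKM in WT and 633 in KD (ratio 1.48, log2 0.57). Of the 1176 genes over 100 FPKM, 3.5% differed at least as much. Cdkn1c was 43.4 times the level of Cdkn1b in WT and 57.6 times in KD. Cdkn2d, which encodes p19 of the INK4 family, had 79.1 FPKM in WT and 108 in KD (log2 0.46). Cdkn1a, the p53 target p21, had 23.6 FPKM in WT and 18.6 in KD (log2 -0.35). Cdkn2b was under 1 FPKM in both groups (0.508 and 0.172) and Cdkn2a was listed at 0 in both.

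Summed over the 7 inhibitors, the level was 542 FPKM in WT and 772 in KD (ratio 1.43). The Cdkn1c share was 79.0% in WT and 82.0% in KD, the Cdkn1b share 1.82% and 1.42%, and the Cdkn2c share 0.104% and 0.106%. Without Cdkn1c the sum was 113.6 FPKM in WT and 139 in KD (ratio 1.22). Set against the kinases, the inhibitor sum was 0.66 times the sum of Cdk2, Cdk4 and Cdk6 in WT and 0.91 times in KD. Set against the D-type cyclins it was 0.84 times in WT and 1.21 times in KD. Of the 7 inhibitors, 4 reached 1 FPKM, and none of these passed a ratio of 1.5-fold, beside 8.18% of the background genes. This count is near that share, and nothing particular to the inhibitors is read from it. With the higher value at least 25% above the lower, 2 of the 4 were higher and 1 lower in KD. The background shares were 12.6% and 9.64%. Of the 4556 genes with a mean of 10 to 100 FPKM, 4.4% differed at least as much as Cdkn2d and 8.8% at least as much as Cdkn1a. The difference of the inhibitors from other genes was not tested.

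None of the 10 members differed by 1.5-fold or more between KD and WT, in a table where 8.18% of the background genes did (4.84% higher and 3.33% lower in KD). At a lower threshold, where the higher value is at least 25% above the lower, the members past it were Ccnd1 and Cdkn2c, both higher in KD, and only Ccnd1 reached 1 FPKM. Of the background genes, 22.2% passed this threshold (12.6% higher and 9.64% lower). This share was 32.4% at a mean of 1 to 10 FPKM, 10.2% at 10 to 100 FPKM and 6.38% over 100 FPKM. In all, 6 members were higher and 4 lower in KD, with a median log2 ratio of 0.04, beside a median of 0.005 and 49.1% of genes lower over the background. The middle range of the background genes, from the lower to the upper quartile, ran from -0.15 to 0.16 on the log2 scale and held 5 of the 10 members. All 10 lay between the 5th and 95th percentiles (-0.46 and 0.57). A count of 0 among 10 genes is near the background share, and nothing particular to the members is read from it.

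**Figure D3:**
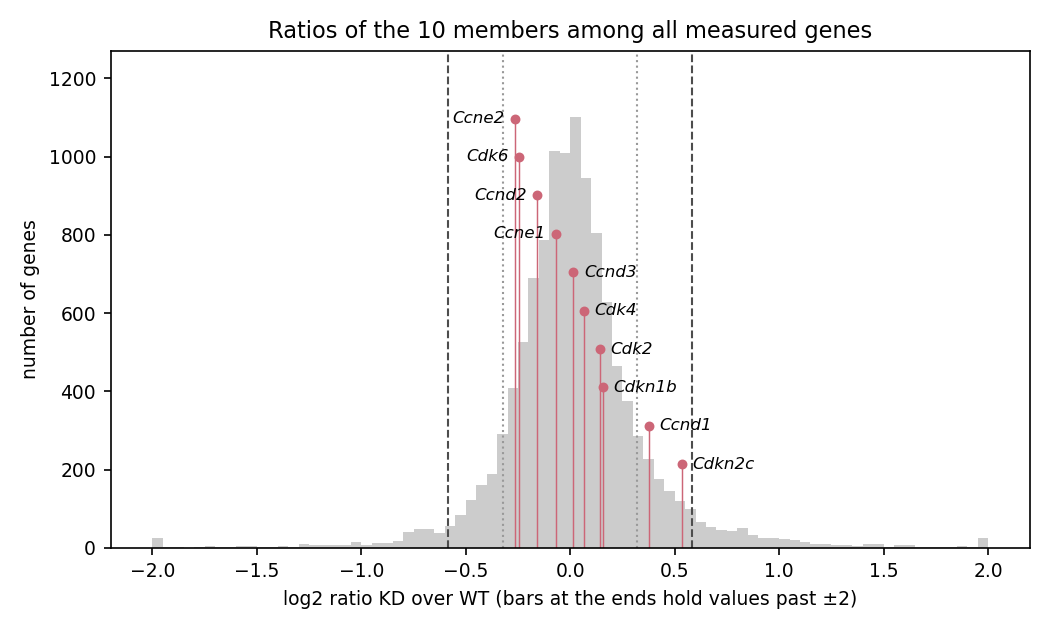
Histogram of the log2 ratio of KD over WT for the genes that reached 1 FPKM in WT or KD, with the 10 members as red stems whose heights only separate the labels. Dashed lines mark 1.5-fold and dotted lines a 25% excess of the higher value, and Ccnd1 (0.38) and Cdkn2c (0.53) are the members past a dotted line.

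**Figure D4:**
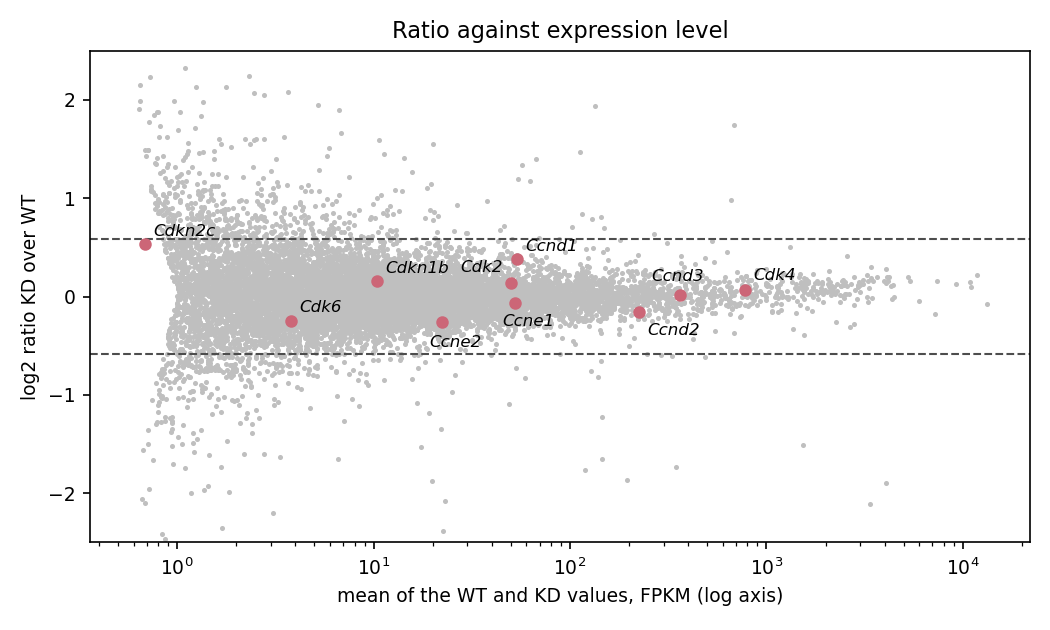
Log2 ratio of KD over WT against the mean FPKM of both groups on a log axis, with 1 grey point per gene (24 genes lie outside the plotted range), the 10 members in red and dashed lines at 1.5-fold. The cloud narrows with level, and Ccnd1 lies nearer to its upper edge than the other members above 10 FPKM.

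The values of 4 members rest on loci that the table joins with another gene, which matters because the library method keeps no strand. Ccnd1 shared its locus with Mir3962, Ccnd2 with the lncRNA 9330179D12Rik, Ccnd3 with Bysl and Ccne2 with Ints8. Bysl had 53.1 FPKM in WT and 50.3 in KD (log2 -0.08), and Ints8 had 23.7 and 19.0 (log2 -0.32), a difference close to that of Ccne2 on the opposite strand (log2 -0.26). 9330179D12Rik had 0.571 FPKM in WT and 0.688 in KD, and Mir3962 was listed at 0 in both.

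The GENCODE annotation adds partners on the opposite strand. The 3′ part of Ccnd1 overlaps 1771 bases of LTO1 (Oraov1 in the table, 6.45 FPKM in WT and 8.12 in KD, log2 0.33), and 27.2% of all 50-base windows of the longest coding Ccnd1 transcript also occur in LTO1 transcripts. For Cdk4 the figure was 29.5%, mostly from Tspan31 (78.3 FPKM in WT and 84.4 in KD, log2 0.11), and for Ccnd3 21.7%, from Bysl and a processed pseudogene of Ccnd3. For Ccne2 it was 17.4%, from Ints8, for Ccnd2 5.2%, from the antisense gene Gm43126, and for Cdk6 1.7%, in part from the antisense gene Gm17590. Cdk6 also overlaps the antisense gene Gm42435, and Cdk2 overlaps 837 bases of Pmel on the opposite strand, which was under 1 FPKM in both groups (0.059 in WT and 0.404 in KD, log2 2.77). Ccne1, Cdk2, Cdkn1b and Cdkn2c shared no window. Reads from the antisense stretches cannot be assigned to a strand, and reads that match both Ccnd3 and its pseudogene cannot be placed by sequence, which makes the values of these members uncertain to that extent. The part of shared reads in the difference of Ccnd1 or Ccne2 was not tested.

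The pocket proteins bind E2F factors and are the substrates of the G1 kinases. Of 18 measured genes of pocket proteins and E2F factors, 12 were higher and 6 lower in KD, beside 49.1% of the background genes lower. Their median log2 ratio was 0.08. Rb1, the target of cyclin D-CDK4, was the only 1 of the 18 past 1.5-fold, beside 8.18% of the background genes, with 0.709 FPKM in WT and 1.23 in KD (log2 0.79), which is under 1 FPKM in WT. Tfdp1, the dimer partner of E2F proteins and the highest of the list, had 52.2 FPKM in WT and 49.2 in KD (log2 -0.09). E2f3, an activating E2F, had 10.2 FPKM in WT and 6.96 in KD (log2 -0.56), and Lin52, of the complex that represses cell cycle genes in G0, had 5.21 and 7.18 (log2 0.46).

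E2F proteins switch on genes of S phase entry. Of 25 measured targets, 18 were lower and 7 higher in KD, beside 49.1% of the background genes lower, with a median log2 ratio of -0.12 beside 0.005. None was past 1.5-fold, beside 8.18% of the background genes, and the difference of the list from other genes was not tested. Pcna, the sliding clamp of DNA polymerase, had 264 FPKM in WT and 240 in KD (log2 -0.14). Chek1, a kinase of the replication checkpoint, had 16.6 FPKM in WT and 11.1 in KD (log2 -0.58), which was the widest difference of the list. Gins1, a part of the replicative helicase, had 27.7 and 30.8 FPKM (log2 0.15).

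Another list held 15 further cyclins, cyclin-dependent kinases and a kinase assembly factor, some of S phase and mitosis and others of transcription or stress responses. Of these, 14 reached 1 FPKM, 10 of them lower and 4 higher in KD (median log2 -0.06), beside 49.1% of the background genes lower. None was past 1.5-fold, beside 8.18% of the background genes, and the difference of the list from other genes was not tested. Ccnb1, the mitotic cyclin, had 154 FPKM in WT and 132 in KD (log2 -0.22). Cdk7, the kinase that activates other CDKs, had 13.1 and 11.1 FPKM (log2 -0.25), and Cdk9, which acts in transcription elongation, had 4.95 and 6.44 FPKM (log2 0.38). Of 6 proliferation markers, which share Ccnb1 with this list, all 6 were lower in KD, beside 49.1% of the background genes lower. Their summed level was 410 FPKM in WT and 369 in KD, with a median log2 ratio of -0.18. The difference of these markers from other genes was not tested.

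Of 10 activators and brakes of CDKs, 4 were higher and 6 lower (median log2 -0.02), beside 49.1% of the background genes lower. None was past 1.5-fold, beside 8.18% of the background genes. The highest was Cks1b, the CDK subunit that helps SKP2 to destroy p27, with 655 FPKM in WT and 615 in KD (log2 -0.09). Its relative Cks2 had 463 and 425 FPKM (log2 -0.12), and the kinase gene Dyrk1b had 1.58 and 2.02 FPKM (log2 0.35). Of 15 genes of ubiquitin ligases and related enzymes that act on cell cycle proteins, 8 were higher and 7 lower (median log2 0.02). None was past 1.5-fold, again beside 8.18% of the background genes. The highest was Ube2c, which works with the anaphase-promoting complex, with 793 FPKM in WT and 691 in KD (log2 -0.20). Ambra1, the adaptor that marks D-type cyclins for destruction, had 3.68 FPKM in WT and 2.96 in KD (log2 -0.31). Fbxo4 had 1.03 and 1.49 FPKM (log2 0.54).

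Of 23 upstream signals, 16 were higher and 7 lower in KD (median log2 0.10), beside 49.1% of the background genes lower. Mxd4, a MAX partner that opposes MYC, had 2.28 FPKM in WT and 5.0 in KD (log2 1.13). It was the only gene of all 7 lists with at least 1 FPKM in both groups that passed 1.5-fold. Of the background genes, which reached 1 FPKM in WT or KD, 8.18% passed. No share was taken over genes that reached 1 FPKM in both groups. Igf2, the fetal growth factor, was the highest, with 348 FPKM in WT and 388 in KD (log2 0.16). Mycn, a driver of cardiomyocyte division in the compact wall, held the lowest ratio of the list (log2 -0.43).

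**Figure D5:**
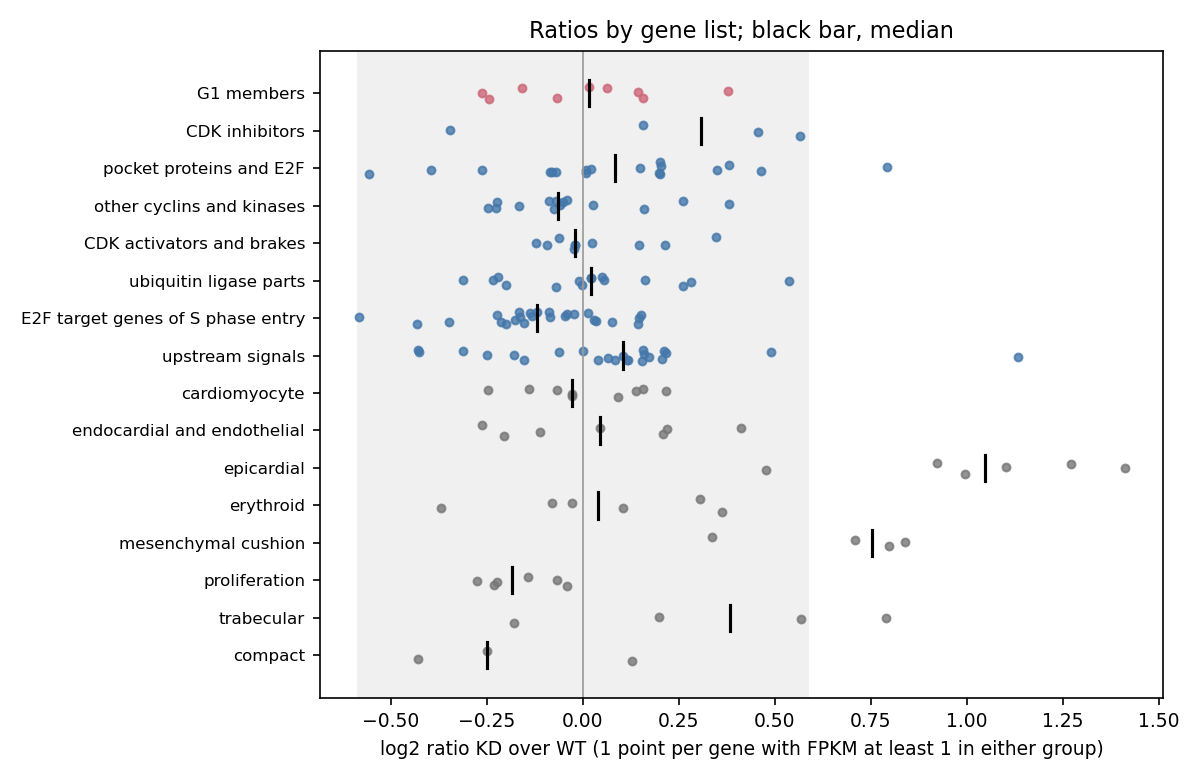
Log2 ratio of KD over WT for each gene that reached 1 FPKM in WT or KD, by list, with the members in red, the pathway lists in blue, the marker lists of cell types in grey, a black bar at each median and grey shading within 1.5-fold. The pathway lists centre near 0, with the CDK inhibitors at 0.31, while the epicardial markers centre at 1.05 and the mesenchymal markers at 0.75.

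Markers of some other cell types differed between the groups beside these genes. All 6 epicardial markers were higher in KD, 5 of them past 1.5-fold, beside 4.84% of the background genes past 1.5-fold higher. Their summed level was 47.0 FPKM in WT and 95.9 in KD, and their median log2 ratio was 1.05. All 4 mesenchymal cushion markers were higher, 3 of them past 1.5-fold (background again 4.84%), with sums of 15.8 and 26.1 FPKM. Some of these markers were under 10 FPKM in both groups, a level at which wide ratios were frequent. Others reached 10 FPKM in KD, among them the epicardial markers with the widest ratios (log2 up to 1.41). At a mean of 10 to 100 FPKM, 10.2% of genes passed the threshold of 25%. The 9 cardiomyocyte markers were higher in 4 cases and lower in 5, with a median log2 ratio of -0.03, while their sum, mostly Myl2, was higher in KD (20900 FPKM in WT and 23040 in KD). The 7 endocardial and endothelial markers (4 higher and 3 lower) had a median of 0.04 and sums of 133 and 146 FPKM. The 6 erythroid markers (3 higher and 3 lower) had a median of 0.04 and sums of 11450 and 11530 FPKM. Of the 4 trabecular markers, 3 were higher, 1 of them past 1.5-fold (background again 4.84%), and 1 was lower (median 0.38, sums 2614 and 2999 FPKM). Of the 3 compact wall markers, 1 was higher and 2 lower (median -0.25, sums 157 and 133 FPKM). Beside all these lists, 49.1% of the background genes were lower in KD. None of these markers is at 0 in either group. The part of a different cell makeup in the values of Ccnd1, Cdkn1b, Cdkn2c and Cdkn1c was not tested.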

How the data were processed

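Libraries of 6 samples (3 WT and 3 KD) were made from 10 ng of total RNA by Smart-Seq2 with 12 preamplification and 9 enrichment cycles and sequenced single-end. The submitters' processing notes name TopHat, Bowtie2, Cuffdiff and build mm10, with versions not given in the sources used here. The authors deposited 1 Cuffdiff table in which each gene has 1 FPKM value for WT and 1 for KD, the latter named KO. Its columns of the authors' own comparison (fold change, test statistic, p-value, q-value and call) were not used. No column held values of single samples, so no test, SD or depth could be computed here. The authors' p-values were left out with their columns.

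The ratio of KD over WT was taken with no pseudocount. A gene was counted as past a ratio at 1.5-fold, or with the higher value at least 25% above the lower, and the background was all genes reaching 1 FPKM in WT or KD. Table starts count from 0 and have 1 added (9652 starts matched GENCODE M21 transcript starts with 1 added and 944 without). Coding sequences were compared by global alignment, and identity is the share of identical bases among aligned bases without gaps. Shared windows were exact matches of 50 bases on either strand, and promoters are from RefSeq. Alignments and windows were added after the values were seen. The read length is not given in the sources used here. Named genes were all 10 members, and in each of the 7 pathway lists those past 1.5-fold with at least 1 FPKM in both groups, the highest in WT and the widest ratios up and down, plus genes overlapping a member. Marker lists are given by counts, medians and sums. Tnnt2, Myl2, Myc, Max, Mxd3, Cdkn2d, Cdkn2a, Cdkn2b and Rb1 were named after their values were seen where the rule did not name them. The members and lists were chosen with earlier results of these data known. The ratio functions were tested on simulated data. Python 3.11.15, NumPy 2.4.6, pandas 2.3.3, Matplotlib 3.10.9 and Biopython 1.88 were used.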

Additional observations from a re-analysis of the deposited data

How the results depend on the processing

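The members' median log2 ratio of 0.04 was 0.03 after the background median was subtracted, 0.01 after scaling to the same FPKM sum with or without the 10 highest genes of each group, 0.10 over the 6 members that share no locus in the table, and 0.02 over the 9 members with at least 1 FPKM in either group (chosen after seeing the data). It was again 0.04 with pseudocounts of 1 and 0.1 and with floors of 5 FPKM or of any value above 0. The count past 1.5-fold was 0 under each of these and at 2-fold, and 2 at the threshold of 25%. With inhibitors under 1 FPKM left out, the Cdkn1c share was 79.2% in WT and 82.1% in KD, and the Cdkn1b share was 1.43% in KD. Across pseudocounts and scalings, 9 of the 10 members kept their sign and Ccnd3 did not, and Cdkn2c moved most, by 0.31 on the log2 scale. At a floor of 5 FPKM, 3.57% of 7931 genes were past 1.5-fold, and with any value above 0 in both groups, 21.1% of 15739. No paired analysis was possible because single embryos have no values of their own, and no embryo could be left out. For the same reason the depth is unknown, and whether any difference exceeds the spread between embryos cannot be said from the values used here.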
